A study of Mus musculus with 18 samples.

Results

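The microRNA profile of Neuro2A cells that carried the 16Q form of TBP was compared between 60 h and 36 h after transfection. Neuro2A is a mouse neuroblastoma cell line. The cells received, by Amaxa nucleofection, a fusion of the TATA-binding protein (TBP) with green fluorescent protein (GFP), in which the polyglutamine tract of TBP held 16 residues. Total RNA was taken with Trizol. Arrays were chosen by their labels alone: 3 at 60 h and 3 at 36 h, which made 6 of the 18 arrays of the series. The other arrays were 16Q cells at 24 h and cells with a 59-glutamine fusion (59Q) at 24, 36 and 60 h, 3 each. All groups shared the host line, the nucleofection and a TBP-GFP fusion; the groups used here include no untransfected cells. Expression was transient, and the share of transfected cells is not given in the sources used here. The replicates are labelled biological, with no statement that they came from separate cultures, so p-values measure only the spread between these samples. The total RNA comes from whole cultures, in which fewer cells of one kind and less RNA per cell cannot be told apart.

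TBP is a general transcription factor needed by all 3 nuclear RNA polymerases, and a long polyglutamine tract in it causes spinocerebellar ataxia type 17; 16 glutamines is a short, non-pathogenic length. A microRNA (miRNA) is a short RNA cut from a hairpin precursor. Loaded on an Argonaute protein, it pairs with messenger RNAs mainly through its seed, bases 2 to 8, and lowers their stability or translation. miRNAs with the same seed form a family with overlapping targets, and miRNAs cut from 1 primary transcript form a cluster, so members of a cluster can have different seeds. A star in a name marks the arm of the hairpin that was held to be the minor product when the array was designed.

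The sequences of the miRNAs on which the results turn follow, 5′ to 3′, with the seed in capitals. They are RefSeq mature sequences (GRCm38.p6). In all, 44 array names were paired with a RefSeq mature miRNA; where the array name gives no arm, the arm was assigned from the usual naming of these miRNAs. Entries not paired are given by name only. The first set is miR-210, the miRNA that passed the test, with 3 others that had higher values on every 60 h array.
miR-210-3p: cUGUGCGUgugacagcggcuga
miR-150-3p (miR-150* on the array): cUGGUACAggccugggggauag
miR-331-3p: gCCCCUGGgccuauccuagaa
miR-134-5p: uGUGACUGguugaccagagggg

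The second set is 3 members of the let-7 family, which share the seed GAGGUAG. let-7i is shown because its values parted from those of the others.
let-7i-5p: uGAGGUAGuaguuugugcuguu
let-7a-5p: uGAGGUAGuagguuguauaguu
let-7c-5p: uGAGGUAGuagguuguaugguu

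The third set comes from the miR-17-92 cluster and its paralogues and is ordered by seed, because members of this list with the same seed had changes of the same sign.
miR-17-5p: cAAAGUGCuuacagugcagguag
miR-20a-5p: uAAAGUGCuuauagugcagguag
miR-93-5p: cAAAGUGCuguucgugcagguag
miR-25-3p: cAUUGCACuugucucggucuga
miR-92a-3p: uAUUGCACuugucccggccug
miR-19a-3p: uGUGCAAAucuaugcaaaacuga
miR-19b-3p: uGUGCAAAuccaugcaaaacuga

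Each value below is the log2 of a scaled signal: the background-subtracted intensity of a miRNA's probes divided by the 75th percentile of the array, with a floor at -4.11. Probes differ in brightness for reasons other than abundance, so levels are compared between arrays and not between miRNAs. Of 566 mouse entries on the array, 226 miRNAs were bright enough in at least 1 of the 6 groups to be tested.

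miR-210, which is induced by hypoxia through HIF and acts on mitochondrial iron-sulphur cluster assembly, rose. Its log2 signal was -1.76, -1.87 and -1.74 on the 60 h arrays and -2.76, -3.28 and -3.06 on the 36 h arrays. The 60 h arrays lay close together, and all were above the highest 36 h array. The log2 change was 1.24 (SE 0.25, limma adjusted p = 0.0334), a 2.36-fold higher signal at 60 h. It was the only miRNA of 226 to pass, or 0.442%, and both of its probes gave the same direction. An exact permutation test on these 6 arrays gave p = 0.1, the smallest that 3 against 3 allows. RefSeq places the mature sequence at chr7:141221407-141221428 on the minus strand.

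With both constructs miR-210 was highest at 60 h. In 16Q cells its log2 signal averaged -3.76 ± 0.20 at 24 h, -3.03 ± 0.26 at 36 h and -1.79 ± 0.07 at 60 h (SD, n = 3 each). In 59Q cells it averaged -3.45 ± 0.24 at 24 h, -3.49 ± 0.38 at 36 h and -1.86 ± 0.26 at 60 h. The log2 change between 36 and 60 h in 59Q cells was 1.63 (limma adjusted p = 0.00165). The 16Q change minus the 59Q change was -0.39, with a 95% confidence interval from -1.14 to 0.37 and limma adjusted p = 0.623.

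**Figure D1:**
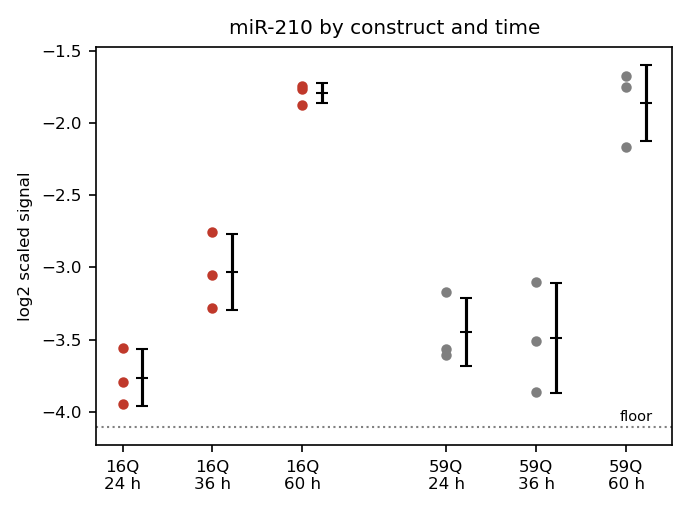
Log2 scaled signal of miR-210 (vertical axis) in the 16Q groups (red) and the 59Q groups (grey) at 24, 36 and 60 h (horizontal axis). Points are arrays, bars the mean ± SD of 3 arrays, and the dotted line is the floor at -4.11; both constructs are highest at 60 h.

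The call of miR-210 was lost in 14 of 23 alternative fits and held in 9. The 14 include the fits within the second slide and with slide as a fixed block, where 36 h rests on replicate 3 alone. Without any one of 5 of the 6 arrays it did not pass, with adjusted p up to 0.335, while without 36 h replicate 1 it did. Its log2 change stayed between 1.12 and 1.38 in those fits. Within the second slide, which held all 60 h arrays but only 36 h replicate 3, the log2 change was 1.26. With the background floor set 4 times higher it was 0.33 (limma adjusted p = 0.0078). The 36 h means of both of its probes, -2.47 and -3.60, lay below that raised floor. The floor thus cuts the spread at 36 h, and this p is not a firmer result.

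The 6 arrays did not split cleanly by time. Across the 226 miRNAs, 36 h replicate 1 correlated with the 60 h arrays at 0.938 to 0.962 and with 36 h replicates 2 and 3 at 0.919 and 0.935, while replicates 2 and 3 correlated with each other at 0.978. The first principal component, with 75.1% of the variance, put 60 h replicates 1 and 2 at -5.51 and -7.16, 60 h replicate 3 at -1.24, and the 36 h arrays at -0.02, 7.30 and 6.63. The arrays differed in brightness too. The 75th percentile of intensity was 118.2, 116.9 and 235.8 at 60 h, and 131.9, 148.9 and 194.9 at 36 h; 19.9 to 29.3% of spots at 60 h and 25.95 to 27.4% at 36 h were above background. The part of array brightness in the results below was not tested. 36 h replicates 1 and 2 lay on the first slide and the other arrays of this comparison on the second, so slide and time are partly mixed in it. Of the fixed markers of other cell types, no blood, liver or epithelial entry of 14 and 1 of 4 muscle entries (miR-206, not above background on any 60 h array) was bright enough to test. Of the 6 entries for neuronal markers, 3 were tested (miR-138, miR-153 and miR-219), with log2 changes from -0.17 to 0.06.

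Beyond miR-210, many miRNAs separated the 2 times without passing the test. In 38 of 226 (16.8%) every 60 h array lay above every 36 h array, and in 56 (24.8%) every 60 h array lay below. Without 36 h replicate 1 these counts were 83 and 75. An unadjusted p under 0.05 was reached by 28 miRNAs (12.4%), 14 in each direction (6.19% each). That count was 9 without 60 h replicate 2 and 39 without 36 h replicate 1, the lowest and highest with 1 array left out, and 2 with normexp background correction. The median log2 change over all 226 was -0.01. A fit on the 6 arrays alone called 34 miRNAs (15%), 13 higher (5.75%) and 21 lower (9.29%) at 60 h; its median SE was 0.196, against 0.387 with all 18 arrays.

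**Figure D2:**
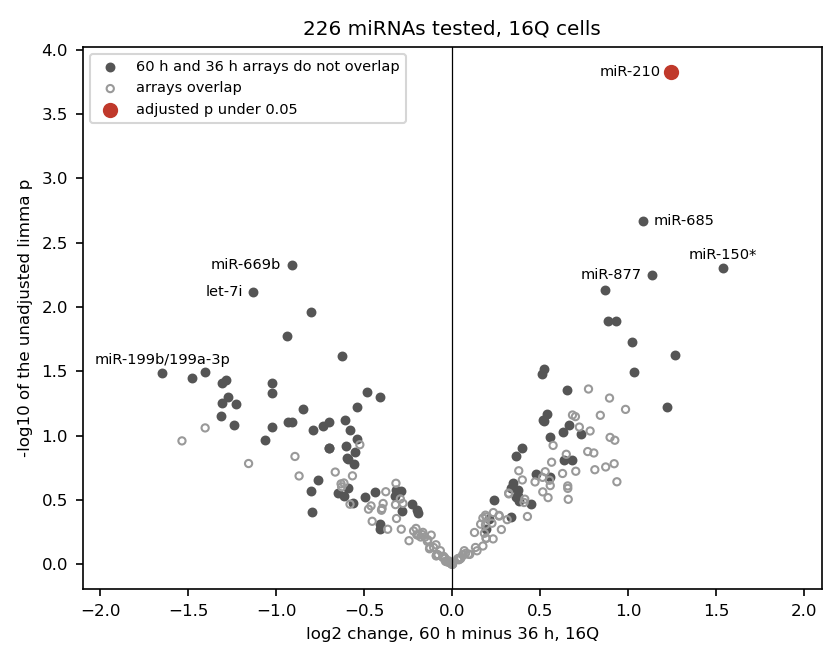
Log2 change in 16Q cells, 60 h minus 36 h (horizontal axis), against −log10 of the unadjusted limma p (vertical axis) for 226 miRNAs. Filled points are miRNAs whose 60 h and 36 h arrays do not overlap, open points those that overlap, and the red point is miR-210, the one that passed after adjustment.

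The 9 miRNAs next to miR-210 on the higher side by p had adjusted p from 0.243 to 0.369. The difference was widest for miR-150*, the other arm of the lymphocyte miRNA miR-150, which was itself not bright enough to test. miR-150* had -0.81, -0.73 and -1.09 at 60 h and -2.30, -2.53 and -2.42 at 36 h. Its arrays were tight within each time and far apart between times. The log2 change was 1.54 (SE 0.47, limma adjusted p = 0.248), with 4 of 4 probes in that direction, against -0.02 in 59Q cells. miR-134, a brain miRNA of the Dlk1-Dio3 cluster that limits dendritic spine size in rat neurons, had -1.45, -1.27 and -2.00 at 60 h and -2.38, -2.99 and -3.15 at 36 h. Here 60 h replicate 3 was the lowest of its group and 36 h replicate 1 the highest of its own, without overlap. Its log2 change was 1.27 (SE 0.51, limma adjusted p = 0.369). miR-331-3p had -1.95, -1.87 and -1.80 at 60 h and -2.63, -2.90 and -2.71 at 36 h, a log2 change of 0.87 (SE 0.28, limma adjusted p = 0.248).

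Other miRNAs on the higher side were near the floor at 36 h. miR-685 was at -2.76, -2.66 and -3.10 at 60 h and at -3.56, -4.11 and -4.11 at 36 h, the last 2 at the floor. miR-877, a mirtron spliced from an intron of Abcf1, was above background on 3 of 3 arrays at 60 h and 0 of 3 at 36 h, which gave an at least 1.60-fold higher signal at 60 h (limma adjusted p = 0.248). The opposite arm, miR-877*, chosen after its values were seen, was at -1.94, -1.84 and -1.76 at 60 h and at -1.18, -0.09 and -0.58 at 36 h. The arms of this hairpin thus had opposite signs, the star arm with a log2 change of -1.23 (SE 0.60, limma adjusted p = 0.369). miR-290-5p and miR-292-5p, from the cluster that marks mouse embryonic stem cells, had log2 changes of 0.93 and 0.52, the second an at least 1.06-fold higher signal at 60 h, where it was above background on 1 of 3 arrays, against 0 of 3 at 36 h. miR-329 and miR-99b* had log2 changes of 0.89 and 1.02.

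**Figure D3:**
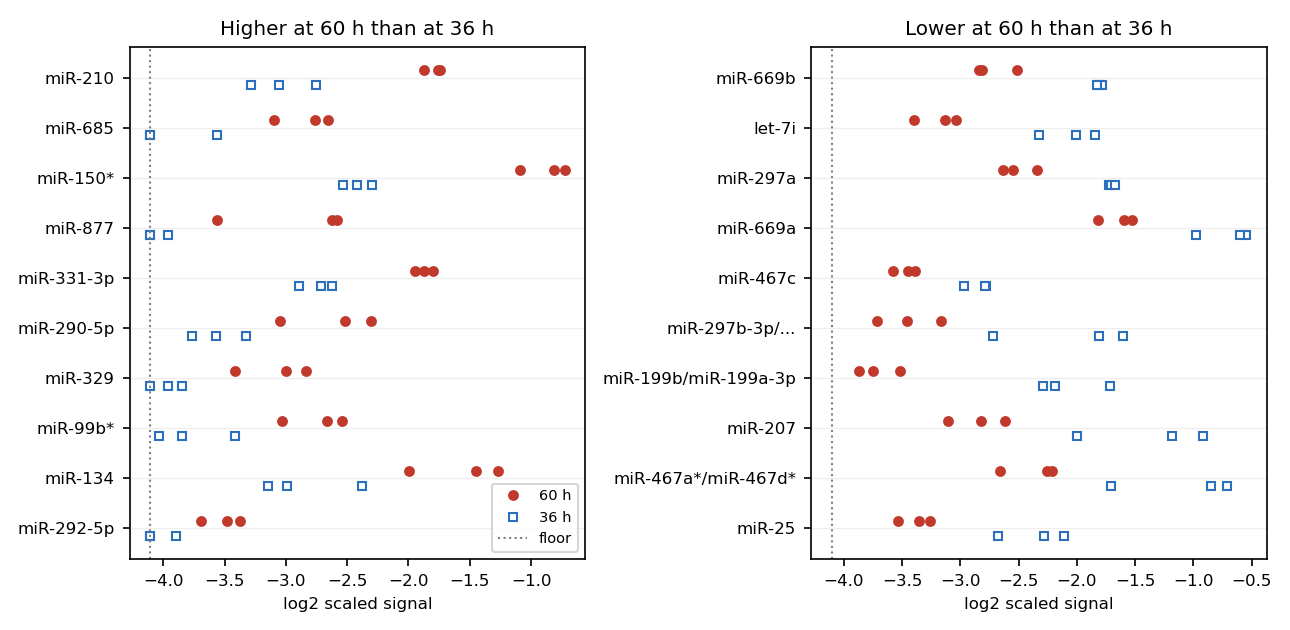
Log2 scaled signal (horizontal axis) on each array of the 10 miRNAs named on the higher side (left panel) and the 10 on the lower side (right panel). Red circles are the 3 arrays at 60 h, open blue squares the 3 at 36 h, and the dotted line is the floor; in all 20 rows the 2 times do not overlap, which follows in part from choosing them by p.

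On the lower side no miRNA passed limma's test over all 18 arrays (0 of 226), and 14 had p under 0.05 before adjustment. let-7i had -3.04, -3.40 and -3.13 at 60 h and -1.84, -2.33 and -2.01 at 36 h. The times did not overlap, and the log2 change was -1.13 (SE 0.37, limma adjusted p = 0.248). The entry for miR-199b and miR-199a-3p, which share 1 mature sequence, had -3.75, -3.87 and -3.52 at 60 h and -2.19, -2.29 and -1.71 at 36 h, the widest difference of this side at -1.65 (SE 0.70, limma adjusted p = 0.369). The 5p arm miR-199a-5p, by contrast, had a log2 change of 0.23, and miR-214, from the same primary transcript as miR-199a, had 0.24. miR-207, in the Dnaja1 gene, had -2.82, -3.10 and -2.62 at 60 h and -2.00, -0.92 and -1.18 at 36 h. For miR-207 the 36 h arrays spread over more than 1 log2 unit, with replicate 1 nearest to the 60 h arrays.

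The other 7 named on the lower side were miR-25, described with its cluster, and 6 entries of 1 rodent miRNA cluster. This cluster lies in an intron of the Polycomb gene Sfmbt2 and holds many near-identical copies of miR-669, miR-467, miR-466 and miR-297, whose probes may share targets. Of its 22 entries on the array 17 were tested, with entries that name a star form alone left aside and the joint entry of miR-297b-3p, miR-297c* and miR-297a* kept; 0 passed limma's test (6 before adjustment, where the share over all miRNAs was 12.4%), 0 had a positive change and 17 a negative one. In 14 of the 17 every 60 h array lay below every 36 h array, where the share over all miRNAs was 24.8%. The median log2 change of the 17 was -0.73, against -0.01 over all 226, and -0.34 for the same entries in 59Q cells. miR-669b was at -2.81, -2.84 and -2.52 at 60 h and at -1.83, -1.79 and -1.83 at 36 h. miR-297a was at -2.64, -2.55 and -2.34 at 60 h and at -1.72, -1.71 and -1.68 at 36 h. In both the 36 h arrays were nearly equal, and 60 h replicate 3 was the nearest to them. miR-669a and miR-467c had log2 changes of -0.94 and -0.63. The members with the smallest changes were miR-467b at -0.07 and miR-467a at -0.11, whose arrays overlapped. The star entry of miR-467a and miR-467d had -2.25, -2.66 and -2.22 at 60 h and -1.70, -0.72 and -0.85 at 36 h, so that the 2 arms of miR-467a differed in size of change. The list's median stayed below 0 under all 24 settings, from -0.86 to -0.20. Settings that change only the estimate of the spread repeat the main median, so these are not 24 separate checks. With the values the authors deposited, 15 of the 17 were negative.

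A second block of entries lay on the higher side. The array holds 42 entries named miR-680 to miR-721, an early set of mouse small RNA sequences of which some, such as miR-720, were later reassigned to fragments of other RNAs. Of 22 tested, 0 passed (2 before adjustment, where the share over all miRNAs was 12.4%). The change was positive in 19 and negative in 3. In 4 of 22 all 60 h arrays lay above all 36 h arrays, a share near the 16.8% over all miRNAs. The median log2 change was 0.63, and -0.04 in 59Q cells. miR-689 was at 0.97, 1.16 and 0.34 at 60 h and at 0.10, -0.49 and -0.79 at 36 h, with 60 h replicate 3 and 36 h replicate 1 nearest to each other. miR-721 had -1.16, -1.07 and -1.73 at 60 h and -2.11, -2.47 and -2.47 at 36 h, and its log2 change was 1.03. The change of miR-708 was 0.89, with overlapping arrays. The entries on the negative side were miR-691, miR-701 and miR-719. Probes for other small RNAs on the same arrays (23 probes above background on all 6) had a median log2 change of 0.16, from -0.44 for U4 to 0.51 for U6 RNA.

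**Figure D4:**
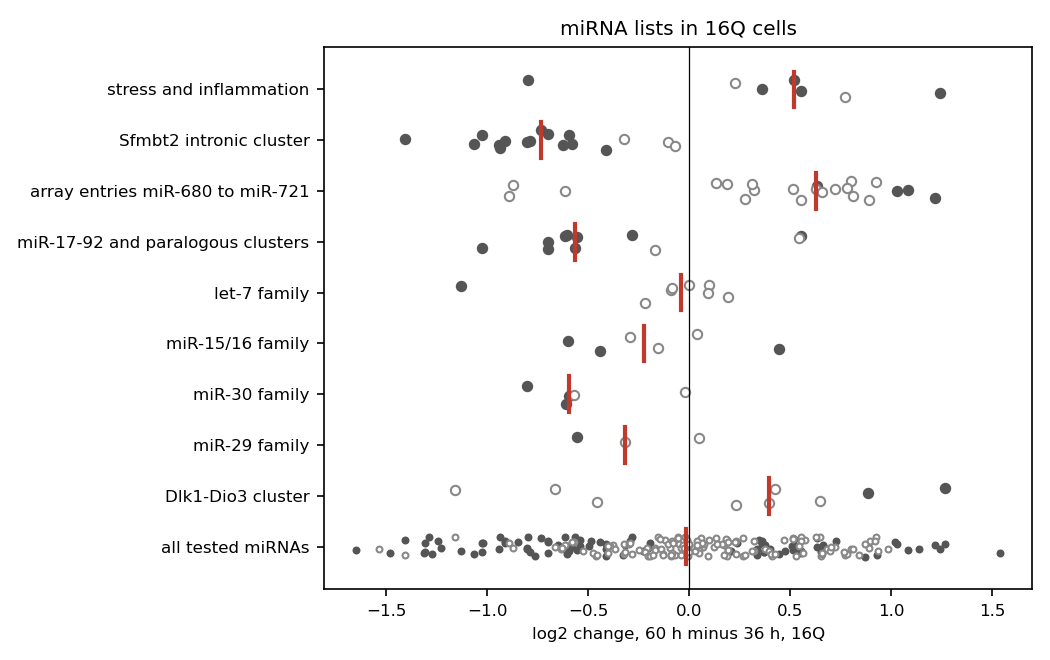
Log2 change in 16Q cells, 60 h minus 36 h (horizontal axis), of each tested member of 9 miRNA lists and of all 226 miRNAs (rows). Filled points are miRNAs whose 2 times do not overlap, open points those that overlap, and red bars are medians; the Sfmbt2 list sits left of 0 and most miR-680 to miR-721 entries right of it.

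The miR-17-92 cluster and its paralogues, which promote proliferation, are transcribed as polycistrons on chromosomes 14, X and 5, the last in the Mcm7 gene. Of 13 entries 11 were tested and 0 passed (1 before adjustment, where the share over all miRNAs was 12.4%). Of the 11, 2 had a positive change and 9 a negative one, with a median log2 change of -0.57. In 8 of 11 every 60 h array lay below every 36 h array, where the share over all miRNAs was 24.8%. Within this list members with the same seed had changes of the same sign, and only the miR-19 seed had positive ones. All 6 members with the miR-17 seed AAAGUGC (miR-17, miR-20a, miR-20b, miR-93, miR-106a and miR-106b) had log2 changes between -0.70 and -0.56. They come from all 3 chromosomes, but their sequences are alike, so their probes may share targets. miR-93 had -2.23, -2.14 and -1.79 at 60 h and -1.33, -1.62 and -1.39 at 36 h. miR-106a had -3.76, -3.66 and -3.19 at 60 h and -2.73, -2.86 and -2.93 at 36 h. In both the 60 h replicate 3 array was the nearest to the 36 h values. miR-25, with the seed AUUGCAC, had -3.35, -3.53 and -3.26 at 60 h and -2.11, -2.68 and -2.29 at 36 h, a log2 change of -1.02 (SE 0.46, limma adjusted p = 0.369). miR-92a has that seed too, and its log2 change was -0.17 with overlapping arrays. miR-18a, with a seed of its own, had -0.28.

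The miR-19 pair, chosen after its values were seen, had the other sign although both are cut from the chromosome 14 transcript of miR-17 and miR-20a. RefSeq lists 2 loci for the mature miR-19b sequence, so its signal need not come from that transcript alone. With the seed GUGCAAA, miR-19b was at 0.43, 0.59 and 0.88 at 60 h and at -0.18, 0.04 and 0.38 at 36 h. The lowest 60 h array was just above the highest 36 h array. miR-19a was at -1.75, -1.65 and -1.11 at 60 h and at -2.70, -1.66 and -1.78 at 36 h, where only 36 h replicate 1 lay well below the rest. The log2 changes were 0.54 for miR-19a and 0.56 for miR-19b (limma adjusted p of 0.538 and 0.495). The median of the 6 members with the miR-17 seed was below 0, and that of the miR-19 pair above 0, in all 24 settings. Some of these settings repeat the main medians by design. The pair's median was 0.55, but 0.32 without 36 h replicate 1 and 0.27 with slide as a fixed block. In 59Q cells all 11 had positive changes, with a median of 0.52.

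The let-7 family, which restrains growth and is abundant in differentiated cells, had 1 member apart from the rest within a single seed. Of 9 entries 8 were tested and 0 passed (1 before adjustment, where the share over all miRNAs was 12.4%). Of the 8, 4 were positive and 4 negative, with a median log2 change of -0.04. Its sign was positive under 8 of 24 settings, some of which repeat the main value by design. Only let-7i had non-overlapping times; the other 7 had log2 changes between -0.22 and 0.19. let-7c was at 1.28, 0.80 and 1.14 at 60 h and at 0.84, 0.74 and 1.36 at 36 h. let-7a was at 0.17, -0.21 and 0.22 at 60 h and at -0.33, -0.20 and 0.41 at 36 h. In both the 2 times were interleaved. Within the second slide all 8 were negative, with a median of -0.38.

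**Figure D5:**
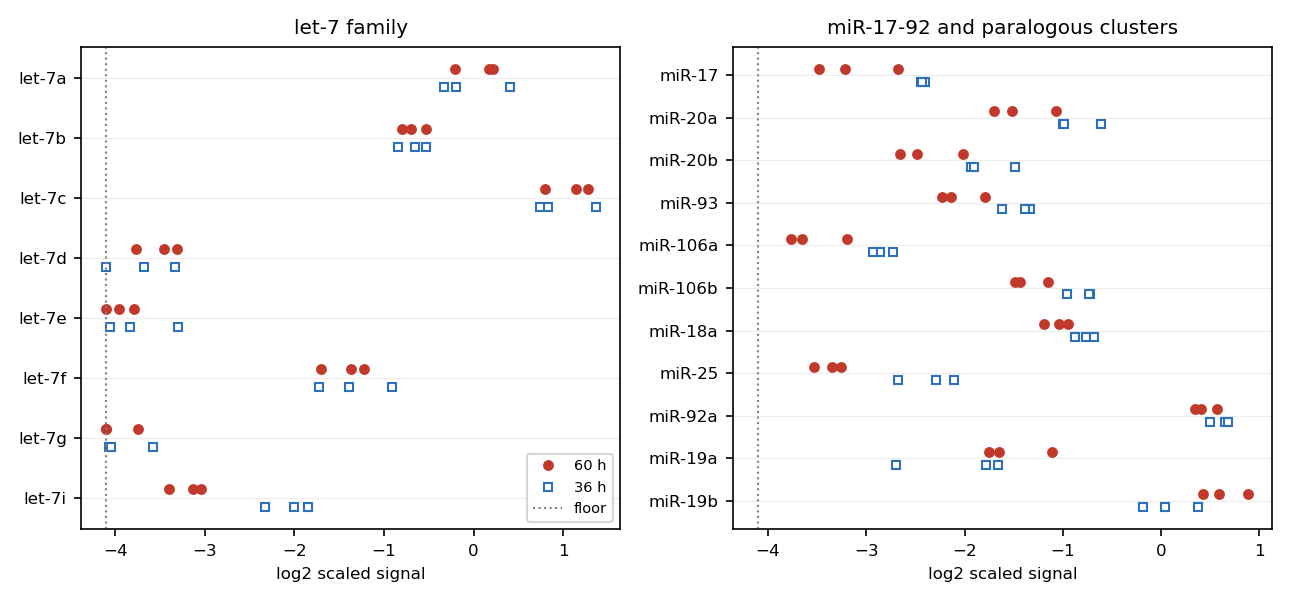
Log2 scaled signal (horizontal axis) on each array for the 8 tested let-7 members (left panel) and the 11 tested members of miR-17-92 and its paralogues (right panel). Red circles are 60 h, open blue squares 36 h; let-7i alone parts by time among let-7 members. On the right, 8 members lie lower at 60 h without overlap and miR-19b higher without overlap, while miR-19a and miR-92a overlap.

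The stress and inflammation list held miR-210 and 6 other tested members of 11 on the array. Only miR-210 itself passed, where the share over all miRNAs was 0.442%, and 2 had p under 0.05 before adjustment (12.4% over all). Positive changes were seen in 6 of the 7, and the median log2 change was 0.52, against 1.02 in 59Q cells. In 4 every 60 h array lay above every 36 h array and in 1 below, where the shares over all miRNAs were 16.8% and 24.8%. miR-146a, an NF-kappaB target that damps Toll-like receptor signalling, was at -0.92, -0.69 and -0.55 at 60 h and at -1.24, -1.25 and -1.23 at 36 h, a log2 change of 0.52 (limma adjusted p = 0.369). Its 36 h arrays were almost equal and all 60 h arrays lay above them. In 59Q cells it changed by 1.35 (limma adjusted p = 0.0174), 1 of 2 calls there (0.885%). miR-212 and miR-132, activity-dependent miRNAs of neurons, had log2 changes of 0.55 and 0.36, with all 60 h arrays above all 36 h arrays in both. miR-155 had a log2 change of 0.77 with overlapping arrays. miR-21, an oncogenic miRNA, was the 1 member with a negative change, at -2.20, -2.52 and -1.97 at 60 h and at -1.43, -1.68 and -1.20 at 36 h.

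In the miR-15/16 family, which targets cyclins and BCL2, 0 of 6 passed, 2 were positive and 4 negative, and the median was -0.22, but 0.11 in the deposited table. miR-16 was at 0.06, 0.16 and 0.59 at 60 h and at 0.81, 0.82 and 0.97 at 36 h. miR-15b, which shares its seed AGCAGCA, was at -0.21, -0.47 and -0.18 at 60 h and at -0.78, -0.88 and -0.54 at 36 h. These 2 members, chosen after their values were seen, separated the times in opposite directions, with log2 changes of -0.60 and 0.45 (limma adjusted p of 0.435 and 0.553). In 2 of the 6 every 60 h array lay below every 36 h array and in 1 above, where the shares over all miRNAs were 24.8% and 16.8%. In the miR-30 family, with roles in differentiation, 0 of 5 passed, all 5 were negative and in 3 every 60 h array lay below every 36 h array (24.8% over all miRNAs), with a median of -0.59, which was 0.01 in the deposited table. miR-30e was at -3.17, -2.84 and -2.55 at 60 h and at -2.13, -2.35 and -2.25 at 36 h. Of the miR-29 family, which targets collagens, 0 of 3 passed: the log2 changes were -0.32 for miR-29a, -0.56 for miR-29b and 0.05 for miR-29c.

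In the imprinted Dlk1-Dio3 cluster of brain miRNAs 9 of 53 entries were tested and 0 passed (2 before adjustment, where the share over all miRNAs was 12.4%). The changes were positive in 6 and negative in 3, and the median was 0.40. The 3 negative ones were miR-376a, miR-376b and miR-434-3p, at -1.16, -0.45 and -0.66, with overlapping arrays. Those with non-overlapping times were miR-134 and miR-329, both higher at 60 h, where the share over all miRNAs was 16.8%. On the neuronal list 7 of 13 were tested and 0 passed. miR-7a, a neuronal and endocrine miRNA, was at the floor on all 60 h arrays and at -2.72, -3.10 and -2.78 at 36 h, an at least 1.41-fold lower signal at 60 h (limma adjusted p = 0.369), although 1 of its 3 probes did not give that direction. Its adjusted p was 0.0087 in the fit on the 6 arrays alone, where the floor left no spread at 60 h, so that p understates the uncertainty. In the lists of miR-23, miR-24 and miR-27, of miR-103, miR-107 and miR-26, of miR-125 and miR-99, of miR-181, and of miRNAs that regulate ataxin-1, 0 members passed, before adjustment too, and the medians were -0.02, -0.04, -0.39, -0.26 and -0.21. Of 24 tested star entries 0 passed (6 before adjustment, where the share over all was 12.4%), 11 were positive and 13 negative, with a median of -0.09. None of 7 p53-linked entries was bright enough to test.

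Whether the change with time differed from that in 59Q cells was tested directly. None of the 226 miRNAs passed in limma (0%), and without adjustment 27 did (11.9%). let-7i came first by p, with log2 changes of -1.13 in 16Q cells and 0.56 in 59Q cells, a difference of -1.69 (95% confidence interval -2.80 to -0.58, limma adjusted p = 0.400). The next were miR-30e, miR-322, miR-214* and the entry for miR-199b and miR-199a-3p, with differences of -1.32, 1.16, -1.07 and -2.64 and the same adjusted p. For miR-322 the 16Q change was 0.04 and the 59Q change -1.12. With slide as a fixed block, the 36 h value of 16Q rests on replicate 3 alone and the 60 h value of 59Q on replicate 1 alone. No calls are given for that fit. The 59Q arrays at 60 h lay on 2 slides and those at 36 h on 1, so slide and time are partly mixed in that comparison.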

How the data were processed

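The authors deposited Agilent Feature Extraction 9.5.1.1 scanner files of intensity, 1 colour (Cy3), per the file headers: the processed signal is background-subtracted. Their deposited log2 table was used only as an alternative. Spots of a probe were averaged, then scaled by the 75th percentile of 290 mouse probes above background on all 18 arrays, floored at 0.0581 and put on the log2 scale. The kept probes of each miRNA were averaged (557 probes of 226 miRNAs). "Above background" means that at least 50% of a probe's unflagged spots were so marked by the scanner software. limma 3.58.1 in R 4.3.3 fitted 6 group means over 18 arrays (12 residual degrees of freedom), with Benjamini-Hochberg adjustment over 226 miRNAs at 0.05. The number of arrays limits the precision. No spot was saturated. The steps were tested on simulated data. The arrays and miRNA lists were chosen with earlier results of these data known. Named miRNAs were the largest changes past the threshold, filled to 10 per direction by smallest p, the 4 largest moderated t of a list, and the 5 smallest p for the difference between constructs; miR-19a, miR-19b, miR-877*, miR-16 with miR-15b, miR-21, miR-132 and the less changed members of lists were added after their values were seen.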

Additional observations from a re-analysis of the deposited data

Results flagged for a closer look

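Probes for viral miRNAs, which the comparisons did not use, gave a signal: of 40 probes for 10 viral entries, 3 were well above background on all 6 arrays. All 3 belong to the entry mghv-miR-M1-2, named for a murine gammaherpesvirus, and the fourth probe of that entry was above background on 2 of 3 arrays at 60 h and 3 of 3 at 36 h. The 4 probes had log2 changes, 60 h minus 36 h, of -0.71, -0.40, -0.46 and -0.16. These values were not tested.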

How the results depend on the processing

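The count of 1 miRNA was 0 with normexp background correction, no scaling, the brightest probe and probes above background on all arrays. It was also 0 with the deposited log2 table, trend and robust options, and slide as a random block. It was 4 with a floor 4 times higher, 34 with only the arrays compared and 10 with only the 16Q arrays. It was 13 without the 4 arrays that stand apart (replicates 1 and 2 of 16Q at 24 h, 59Q at 36 h replicate 2 and at 60 h replicate 1). All 10 and all 13 were among the 34. The cause of these differences was not tested.

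For miR-210 the log2 change and limma adjusted p were 0.43 and 0.999 with normexp, 1.14 and 0.737 without scaling, and 0.999 and 0.193 with the brightest probe. They were 0.999 and 0.209 with probes above background on all arrays, and 0.70 and 0.369 in the deposited table. They were 1.24 and 0.104 with trend and robust options, and 1.23 and 0.126 with slide as a random block. With the higher floor they were 0.33 and 0.0078, the smallest change of any setting, where the 36 h means of both probes lay below the floor. The second slide holds 1 of the 3 arrays at 36 h. With slide as a fixed block the 36 h value rests on that same array. Only log2 changes are given for these fits. They were 1.26 for miR-210 and -1.33 for miR-7a, which was at the floor on all 60 h arrays. With 1 array left out the count was 0 to 1, the log2 change 1.12 to 1.38. The replicate block left 1 call, miR-210. Deviations of same-numbered arrays from their group means correlated at 0.04, -0.43 and 0.53. These values cannot show whether the numbers pair the arrays, since each mean comes from only 3 arrays. The difference between constructs gave 67 calls with slide as a fixed block and 1 with the higher floor.

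List medians under normexp were 0.22 (stress), -0.14 (miR-17-92), -0.022 (miR-15/16), -0.10 (miR-30), -0.25 (Sfmbt2), 0.15 (Dlk1-Dio3) and 0.26 (miR-680 to miR-721). With the higher floor they were 0.23, -0.17, -0.034, -0.018, -0.20, 0 and 0.19 in the same order. In the deposited table they were -0.14 (miR-17-92), 0.11 (miR-15/16), 0.011 (miR-30) and -0.20 (Sfmbt2), where the median of all miRNAs was 0.17. Within the second slide and with slide as a fixed block let-7 was -0.38, Dlk1-Dio3 0.66 and miR-680 to miR-721 0.97; with a random block miR-15/16 was -0.39 and Dlk1-Dio3 0.59. Stress was 0.66 with the percentile over all probes, miR-30 -0.30 with probes above background on all arrays, and Dlk1-Dio3 0.22 without scaling. With 1 array left out Dlk1-Dio3 ranged from 0.16 to 0.66 (0.66, 0.26 and 0.16 without 36 h replicates 1, 2 and 3, and 0.19 without 60 h replicate 2). Without 36 h replicate 3 the medians of miR-15/16, miR-680 to miR-721 and let-7 were -0.11, 0.41 and 0.10, let-7 was 0.054 without 60 h replicate 2, and miR-29 was -0.21 without 36 h replicate 1. With the higher floor miR-685, miR-877, miR-290-5p, miR-329, miR-99b* and miR-292-5p were at 0, since all arrays were then at the floor. The other 14 of the 20 miRNAs named by direction kept it under all settings run, but not their size: let-7i lay between -1.28 and -0.14, the entry for miR-199b and miR-199a-3p between -2.095 and -0.19, miR-25 between -1.22 and -0.16, miR-467c between -0.73 and -0.035 and miR-150* between 0.71 and 1.75. The smallest sizes came with normexp, the higher floor or the deposited table. Settings that change only the estimate of the spread repeat the main values, and slide as a fixed block repeats those of the second slide. They add no separate check of direction.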
